A study of Homo sapiens with 6 samples.

Results

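The 35 genes described here encode chaperones of the endoplasmic reticulum (ER), sensors and transcription factors of the unfolded protein response, and proteins that import, degrade or export the cargo of the ER. The rule that chose them is a list of gene symbols by function and uses no measured value. The list was drawn up, however, with earlier results of these data known, so its share of calls beside all genes is a description. All 35 were found among the 63677 genes of the count table, and all 35 held enough fragments to be tested. Sorted by role, they comprise 5 sensors and transcription factors, 10 chaperones of the HSP70 and HSP90 kind with their partners, 5 disulfide isomerases and lectin chaperones, 10 genes of ER-associated degradation and 5 genes of translocation, processing and export.

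Secreted and membrane proteins enter the ER unfolded, and chaperones such as HSPA5 (BiP) hold them until they are folded. When unfolded protein accumulates, 3 kinds of sensor respond: ERN1 (IRE1) splices the mRNA of XBP1 into the form that encodes an active transcription factor, ATF6 is cleaved in the Golgi and enters the nucleus, and EIF2AK3 (PERK) phosphorylates the translation factor eIF2-alpha. ATF6 and XBP1 then bind short promoter words of chaperone and degradation genes, while PERK acts on transcription through ATF4.

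The data are RNA-seq counts from HEK293, a human embryonic kidney cell line, taken 48 hours after siRNA transfection. One group received an siRNA against circRAB3IP, a circular RNA of the RAB3IP gene (siRAB3IP below), another received an siRNA against circCAMSAP1 (siCAMSAP1), and the control group received an siRNA named NTC in the design. Each group had 2 libraries, and all 6 came from the same unmodified line with the same transfection reagent. The labels do not state whether the paired libraries of a group were separate cultures, and the p-values therefore reflect library-to-library spread alone, possibly technical.

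The names of the libraries are in conflict, and every comparison between groups below depends on which names are used. Groups were taken here from the library identifiers and the names in the authors' deposited tables, and by the sample titles 4 of the 6 libraries would belong to another group. The genotype field of the knockdown records swaps the 2 circular RNAs relative to the titles. All 8 normalized columns of the deposited tables were constant multiples of count columns of the group with the same name by identifier (tolerance 1e-06 in log2). Grouped by title instead, the quasi-likelihood test of edgeR (Benjamini-Hochberg adjusted p under 0.05) called 0 of 35 of these genes and 0 of 22331 genes in each of the 3 comparisons. An unadjusted p under 0.05 was then found for 350, 441 and 471 of all genes and for 0 of the 35 genes in each comparison. The median log2 fold change of the 35 genes was -0.11 for the libraries titled circRAB3IP against those titled control. By identifier, no siRAB3IP library is titled circRAB3IP, while a siRAB3IP library is titled control. The sources used here do not settle which set of names is right.

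Libraries held 37379217 to 39637733 fragments assigned to genes, so that 3 fragments, the floor used here for detection, stood for 0.0757 to 0.0803 CPM (counts scaled to library size). Of 7 HEK293 marker genes with a row in the table, CDH2, VIM, KRT8, KRT18 and LIN28B were present in all 6 libraries, while PAX2 (0.0255 to 0.227 CPM) and NEFM (0.0803 to 0.333 CPM) were near 0. The keratins were lower in siRAB3IP than in the other libraries, with KRT8 at 927 and 863 CPM in control, 511 and 650.0 in siRAB3IP, and 741 and 705 in siCAMSAP1. KRT8 and KRT18 were both called lower in siRAB3IP against control (adjusted p = 0.00519 and 0.000541, edgeR). Markers of other cells were low: the 8 blood markers summed to 5.46 to 5.68 CPM in control, 8.69 to 8.87 in siRAB3IP and 7.24 to 8.63 in siCAMSAP1, with PTPRC at most 0.0757 CPM and HBB at 0. Of 4 blood markers tested, 2 were called higher in siRAB3IP: LCP1, at 1.07 and 1.46 CPM in control and 4.03 and 4.43 in siRAB3IP, and HBA2, at 0.642 and 0.278 CPM in control and 1.33 and 1.0496 in siRAB3IP. LCP1 was also called higher in siCAMSAP1, at 2.35 and 2.96 CPM. The 8 liver and plasma cell markers summed to 18.9 to 19.7, 29.5 to 30.3 and 21.3 to 21.6 CPM, nearly all of it the epithelial and plasma cell proteoglycan SDC1, and IGKC was at 0. SDC1 was called higher in siRAB3IP, at a log2 fold change of 0.69 against control (adjusted p = 0.000788, edgeR). Against siCAMSAP1 it was at 0.52 (adjusted p = 0.00498, edgeR). The 6 fibroblast markers summed to 22.3 to 30.5, 18.4 to 25.0 and 20.04 to 28.7 CPM. One of them, COL1A1, was called lower in siRAB3IP, at 9.52 and 8.73 CPM in control, 4.69 and 5.43 in siRAB3IP, and 10.03 and 11.05 in siCAMSAP1. The part of these keratins and markers in the results was not tested, and fewer cells of a type cannot be told apart from less RNA per cell in these bulk libraries.

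Promoter sequences carry the words through which ATF6 and XBP1 are known to act, and RefSeq promoter windows (build GRCh38.p14, 250 bases before to 50 after the start) were available for 31 of the 35 genes. Windows of DERL1, DERL3, PDIA3 and SEC24D were not used here. On either strand, the ER stress response element (ERSE: CCAAT, any 9 bases, then CCACG) was present in 25 of 27305 genes (0.0916%) and in 7 of the 31 (22.6%), which were XBP1, HSPA5, HSP90B1, CRELD2, PDIA6, CALR and CANX. ERSE-II (ATTGG, any 1 base, then CCACG) was present in 19 genes (0.0696%), 3 of them on the list: HYOU1, SDF2L1 and HERPUD1. An 8-base unfolded protein response element (TGACG followed by TGG) was found in 253 genes (0.927%), including HYOU1 and DNAJC10. The core CCACG, which both ERSE words contain, was in 11494 genes (42.1%) and in 24 of the 31 (77.4%). A match is a description of the letters and not evidence that a factor binds there.

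The 250 bases before the start site of 5 genes are printed because they show the words in genes on both sides of the test described below: HSPA5, the defining target of the response, XBP1, HYOU1 and HERPUD1, all higher in siRAB3IP, and HSP90B1, which was not called. Each runs 5′ to 3′ on the gene's strand, and capitals mark the ERSE, ERSE-II or UPR element words. The stretches are chr9:125241344-125241593 (minus strand) for HSPA5, chr22:28800570-28800819 (minus) for XBP1, chr11:119057206-119057455 (minus) for HYOU1, chr16:56931892-56932141 (plus) for HERPUD1 and chr12:103930160-103930409 (plus) for HSP90B1.
HSPA5: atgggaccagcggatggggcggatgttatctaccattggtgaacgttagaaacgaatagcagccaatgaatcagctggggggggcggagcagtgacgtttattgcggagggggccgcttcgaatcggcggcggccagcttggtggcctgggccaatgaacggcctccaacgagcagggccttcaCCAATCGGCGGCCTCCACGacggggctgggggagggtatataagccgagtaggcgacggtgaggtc
XBP1: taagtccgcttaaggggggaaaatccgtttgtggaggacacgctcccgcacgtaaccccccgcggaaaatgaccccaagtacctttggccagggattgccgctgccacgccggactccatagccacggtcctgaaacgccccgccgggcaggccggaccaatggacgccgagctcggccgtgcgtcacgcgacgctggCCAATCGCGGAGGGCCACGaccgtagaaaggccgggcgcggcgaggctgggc
HYOU1: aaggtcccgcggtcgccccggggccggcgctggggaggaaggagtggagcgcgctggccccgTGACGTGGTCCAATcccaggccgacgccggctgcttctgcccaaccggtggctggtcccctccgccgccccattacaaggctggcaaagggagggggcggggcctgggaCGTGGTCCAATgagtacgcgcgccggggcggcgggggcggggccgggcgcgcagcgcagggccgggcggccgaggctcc
HERPUD1: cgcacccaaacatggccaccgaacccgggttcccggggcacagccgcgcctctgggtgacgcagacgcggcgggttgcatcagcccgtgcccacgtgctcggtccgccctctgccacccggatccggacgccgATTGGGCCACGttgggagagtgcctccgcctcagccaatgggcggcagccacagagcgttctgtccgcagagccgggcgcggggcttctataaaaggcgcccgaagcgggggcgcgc
HSP90B1: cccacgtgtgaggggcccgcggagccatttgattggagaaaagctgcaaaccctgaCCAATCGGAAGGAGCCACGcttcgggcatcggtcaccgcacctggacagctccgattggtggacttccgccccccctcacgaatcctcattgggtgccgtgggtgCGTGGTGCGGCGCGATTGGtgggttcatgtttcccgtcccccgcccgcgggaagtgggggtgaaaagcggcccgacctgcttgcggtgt
In HSPA5 the exact ERSE word lay at -66 to -48 and in XBP1 at -52 to -34, counted with the start site as 0. HYOU1 held 2 ERSE-II words, and its UPR element overlaps the more distant of them. HSP90B1 held 2 ERSE words, at -194 to -176 and at -89 to -71.

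**Figure D1:**
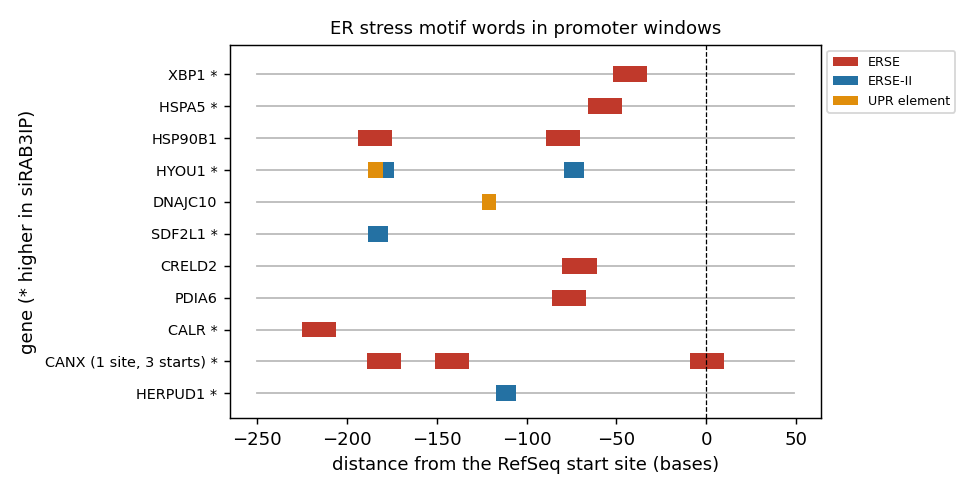
Position of exact ERSE (red), ERSE-II (blue) and UPR element (orange) words in RefSeq promoter windows, with distance from the start site in bases on the x axis and the 11 genes that hold a word on the y axis (* marks genes higher in siRAB3IP). HSP90B1 and HYOU1 hold 2 ERSE or ERSE-II words each, and the 3 marks of CANX are 1 site seen from 3 start sites.

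In control cells the 35 genes covered a wide range of levels. Per transcript length (in TPM, a level scaled to length and library), the highest control means were the lectin chaperones CALR, at 379, and CANX, at 275, followed by the HSP90-family chaperone HSP90B1 at 223. XBP1 stood 9th at 55.1 TPM and HSPA5 11th at 31.6, and the lowest was ERN1 at 2.05, with a median of 12.7 over the list. Of 34 pairs of neighbours in this order, 18 overlapped between their control libraries and 16 did not, CALR over CANX and CANX over HSP90B1 among the latter. Together the 35 genes took 0.491% and 0.506% of all fragments in control, 0.579% and 0.599% in siRAB3IP and 0.502% and 0.534% in siCAMSAP1. Their summed level was thus higher in both siRAB3IP libraries than in the other 4.

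siRAB3IP against control gave the main change: 18 of the 35 genes were higher and 0 were lower at an adjusted p under 0.05 (edgeR quasi-likelihood test, Benjamini-Hochberg adjustment over 22331 genes). Among all genes 11.6% were called in this comparison, 6.39% higher and 5.24% lower, against 51.4% of the 35 genes. With only genes of a mean of at least 5 CPM tested, 19.99% of 11783 were called, against 54.3% of the 35. Rises of the 18 genes were small to moderate, from 1.19-fold to 1.82-fold with a median of 1.38-fold. The median log2 fold change was 0.26 over the 35 genes and -0.01 over all genes, and 30 of 35 were above 0 against 48.4% of all genes. Fold changes use the TMM scaling of edgeR and CPM does not. In CPM the median log2 ratio of siRAB3IP to control over all tested genes was -0.07. HSP90B1, DERL2 and DERL3 are among the 30, yet their CPM ratios to control were 0.991, 0.958 and 0.9905. In CPM, both siRAB3IP libraries were above both controls for 23 genes, below for 5 and overlapping for 7, where all genes gave 20.3% above and 34.3% below. For 17 genes both siRAB3IP libraries were above all 4 other libraries, and for 2 genes, ERN1 and WFS1, they were below all 4. The share of all genes in these positions was not counted, so the counts of 17 and 2 are descriptions alone. Leaving out any control or siRAB3IP library lowered the count of 18, and the share of all genes called fell as well. In each of 15 alternatives that kept this grouping, 8 genes were called higher: XBP1, EIF2AK3, HYOU1, CALR, EDEM1, DERL1, SEC61A1 and SEC24D.

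**Figure D2:**
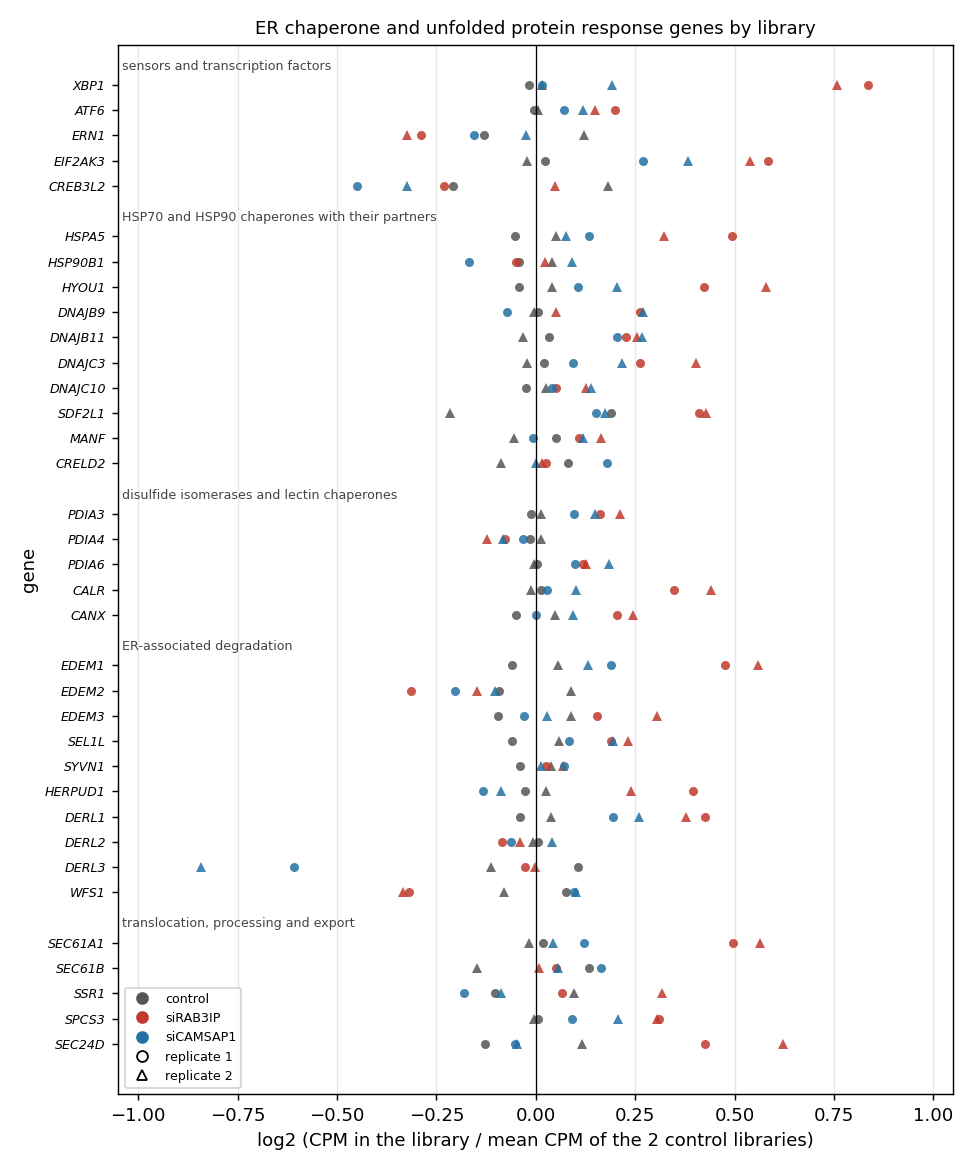
Level of each of the 35 genes in each library, as log2 of its CPM over the mean CPM of the 2 control libraries (x axis), by gene and role (y axis), with colour for the group and circle or triangle for replicate 1 or 2. For 17 genes both red siRAB3IP points lie to the right of all other points in the row of the same gene. XBP1, EIF2AK3, HYOU1, EDEM1, SEC61A1 and SEC24D are among them. Both blue siCAMSAP1 points of DERL3 lie far to the left.

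Of the 5 sensors and transcription factors, XBP1 and EIF2AK3 rose in siRAB3IP. Over all genes 6.39% were called higher there, a share that applies beside the count of each role below. Differences between roles were not tested. XBP1 (hg19 chromosome 22, 29190543 to 29196585), the transcription factor that drives ER expansion, was at 111 and 114 CPM in control, 201 and 190.5 in siRAB3IP, and 114 and 129 in siCAMSAP1. Both siRAB3IP libraries were far above the other 4, and the log2 fold change against control was 0.86 ± 0.08 (SE; adjusted p = 0.000111, edgeR), the highest of the list. The counts cover spliced and unspliced XBP1 mRNA together, so splicing by ERN1 was not analysed here. EIF2AK3, the PERK kinase (chromosome 2, 88856259 to 88927094), was at 24.0 and 23.2 CPM in control, 35.4 and 34.2 in siRAB3IP, and 28.4 and 30.7 in siCAMSAP1. The 3 groups did not overlap, with siCAMSAP1 between the others, and the log2 fold change in siRAB3IP was 0.62 ± 0.09 (adjusted p = 0.00123, edgeR). Of its exon bases 15.1% are shared with another annotated gene.

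The remaining sensors did not pass the test. ATF6 was at 115 and 115 CPM in control, 132 and 127 in siRAB3IP, and 121 and 125 in siCAMSAP1, which put siRAB3IP highest without overlap but gave a log2 fold change of 0.24 ± 0.08 with an adjusted p of 0.0619 (edgeR). ERN1, which encodes the XBP1-splicing IRE1, was at 13.7 and 16.3 CPM in control, 12.3 and 11.97 in siRAB3IP, and 13.4 and 14.7 in siCAMSAP1. Its siRAB3IP libraries were the lowest 2, with a log2 fold change of -0.24 ± 0.12 (adjusted p = 0.211, edgeR). CREB3L2, a membrane-bound relative of ATF6, had overlapping siRAB3IP and control libraries and a log2 fold change of -0.02 ± 0.12.

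Of the 10 chaperones of the HSP70 and HSP90 kind and their partners, 5 rose in siRAB3IP. The other 5 had log2 fold changes above 0 without passing the test, among them HSP90B1, whose CPM ratio to control was 0.991. HSPA5, the HSP70 chaperone of the ER lumen (chromosome 9, 127997132 to 128003609), was at 80.2 and 86.2 CPM in control, 117 and 104 in siRAB3IP, and 91.4 and 87.7 in siCAMSAP1. Both siRAB3IP libraries were above all others, and the log2 fold change was 0.47 ± 0.09 (adjusted p = 0.00412, edgeR). HYOU1, a large HSP70 relative that acts as nucleotide exchange factor of HSPA5 (chromosome 11, 118914900 to 118927913), was at 100.5 and 107 CPM in control, 139 and 155 in siRAB3IP, and 112 and 119 in siCAMSAP1. Its log2 fold change was 0.57 ± 0.08 (adjusted p = 0.000993, edgeR), and the 3 groups did not overlap.

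Among the J-domain co-chaperones of HSPA5, DNAJC3 and DNAJB11 were called. DNAJC3 (p58IPK) was at 46.5 and 45.2 CPM in control, 55.0 and 60.6 in siRAB3IP, and 48.9 and 53.3 in siCAMSAP1, a log2 fold change of 0.40 ± 0.09 in siRAB3IP (adjusted p = 0.0113, edgeR). DNAJB11 (ERdj3) was at 76.7 and 73.3 CPM in control, 87.7 and 89.5 in siRAB3IP, and 86.4 and 90.2 in siCAMSAP1. Both knockdowns stood above control for DNAJB11 and overlapped each other, with log2 fold changes of 0.30 ± 0.08 (adjusted p = 0.0275) in siRAB3IP and 0.27 ± 0.08 (adjusted p = 0.171) in siCAMSAP1 by edgeR. SDF2L1, which works in a complex with DNAJB11, was at 15.3 and 11.6 CPM in control, 17.8 and 18.1 in siRAB3IP, and 14.9 and 15.2 in siCAMSAP1. Its control libraries were far apart, with a log2 fold change of 0.48 ± 0.14 (adjusted p = 0.0398, edgeR) that ranged from 0.27 to 0.73 over the alternatives. DNAJB9 (ERdj4) and DNAJC10 (ERdj5) had 0.22 ± 0.14 and 0.15 ± 0.08.

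HSP90B1 (GRP94), the HSP90 of the ER and a known target of ATF6, showed no called difference at a high level. It was at 684 and 725 CPM in control, 680.4 and 716 in siRAB3IP, and 628 and 751 in siCAMSAP1, so that all 3 groups overlapped, and its log2 fold change in siRAB3IP was 0.05 ± 0.09 (adjusted p = 0.787, edgeR). MANF and CRELD2, small secreted proteins induced by ER stress, had log2 fold changes of 0.20 ± 0.09 and 0.08 ± 0.11 in siRAB3IP, neither called.

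Among the 5 isomerases and lectin chaperones, CALR, CANX and PDIA3 rose, which together form the cycle that folds N-glycosylated proteins. CALR (calreticulin; chromosome 19, 13049392 to 13055303) was at 700.4 and 688 CPM in control, 883 and 942 in siRAB3IP, and 707 and 745 in siCAMSAP1. The siRAB3IP libraries stood clear of the other 4, with a log2 fold change of 0.46 ± 0.08 (adjusted p = 0.0034, edgeR). CANX (calnexin) was at 1116 and 1193 CPM in control, 1329 and 1367 in siRAB3IP, and 1154 and 1231 in siCAMSAP1, a log2 fold change of 0.29 ± 0.08 (adjusted p = 0.0322, edgeR). PDIA3 (ERp57), the isomerase that partners with both lectins, was at 240.3 and 244 CPM in control, 271 and 281 in siRAB3IP, and 259 and 269 in siCAMSAP1. Its siRAB3IP values were just above those of siCAMSAP1, and the log2 fold change against control of 0.25 ± 0.07 was close to the threshold (adjusted p = 0.0476, edgeR). The calls of CANX and PDIA3 were lost in 6 and 9 of the 15 alternatives. PDIA6 and PDIA4, further disulfide isomerases of the ER lumen, had 0.18 ± 0.08 and -0.04 ± 0.08, neither called.

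Of the 10 genes of ER-associated degradation, 5 rose in siRAB3IP. EDEM1, which helps to extract misfolded glycoproteins (chromosome 3, 5229331 to 5261642), was at 59.1 and 64.1 CPM in control, 85.6 and 90.7 in siRAB3IP, and 70.2 and 67.4 in siCAMSAP1. The 3 groups did not overlap, and the log2 fold change in siRAB3IP was 0.58 ± 0.08 (adjusted p = 0.000766, edgeR). DERL1, a channel component of retrotranslocation, was at 44.7 and 47.2 CPM in control, 61.7 and 59.7 in siRAB3IP, and 52.6 and 55.0 in siCAMSAP1, with a log2 fold change of 0.47 ± 0.08 (adjusted p = 0.00304, edgeR). HERPUD1, a scaffold of the ubiquitin ligase complex (chromosome 16, 56965960 to 56977798), was at 27.3 and 28.3 CPM in control, 36.5 and 32.8 in siRAB3IP, and 25.3 and 26.1 in siCAMSAP1. Here siCAMSAP1 was below both controls and siRAB3IP above them, and the log2 fold change in siRAB3IP was 0.38 ± 0.09 (adjusted p = 0.0189, edgeR).

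EDEM3 and SEL1L rose by less. EDEM3, a mannosidase of the EDEM family, was at 62.3 and 70.7 CPM in control, 74.0 and 82.2 in siRAB3IP, and 65.1 and 67.8 in siCAMSAP1, a log2 fold change of 0.29 ± 0.08 (adjusted p = 0.0384, edgeR). SEL1L, the adaptor of the ligase SYVN1 (HRD1), was at 69.7 and 75.7 CPM in control, 82.8 and 85.4 in siRAB3IP, and 77.0 and 83.1 in siCAMSAP1, with 0.27 ± 0.08 (adjusted p = 0.0393, edgeR). These calls were lost in 8 and 9 of the 15 alternatives. SYVN1 itself (0.11 ± 0.09), DERL2 (0.00 ± 0.08) and EDEM2 (-0.17 ± 0.10) were not called, so the families of EDEM and DERL genes held both called and uncalled members.

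The calls of DERL3 and WFS1 came from other comparisons than siRAB3IP against control. DERL3, a relative of DERL1 that is prominent in secretory cells (chromosome 22, 24176690 to 24181315), was at 11.1 and 9.56 CPM in control, 10.2 and 10.3 in siRAB3IP, and 6.78 and 5.77 in siCAMSAP1. The siCAMSAP1 libraries were the lowest and siRAB3IP lay within the controls, with log2 fold changes of -0.69 ± 0.14 (adjusted p = 0.0444) in siCAMSAP1 and 0.05 ± 0.14 (adjusted p = 0.876) in siRAB3IP by edgeR. WFS1, the ER membrane protein wolframin (chromosome 4, 6271576 to 6304992), was at 29.7 and 26.7 CPM in control, 22.6 and 22.4 in siRAB3IP, and 30.1 and 30.2 in siCAMSAP1. Both siRAB3IP libraries were below the other 4, yet the log2 fold change of -0.26 ± 0.10 against control did not pass (adjusted p = 0.105, edgeR).

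In the group of translocation, processing and export, 3 of 5 genes rose in siRAB3IP. SEC61A1, the channel through which proteins enter the ER (chromosome 3, 127770484 to 127790526), was at 266 and 259 CPM in control, 369.7 and 387 in siRAB3IP, and 285 and 270.1 in siCAMSAP1. The siRAB3IP libraries stood well above the others, with a log2 fold change of 0.59 ± 0.08 (adjusted p = 0.000746, edgeR). SEC24D, a cargo adaptor of COPII vesicles (chromosome 4, 119643978 to 119759838), was at 22.6 and 26.7 CPM in control, 33.1 and 37.9 in siRAB3IP, and 23.8 and 23.8 in siCAMSAP1, also 0.59 ± 0.10 (adjusted p = 0.00293, edgeR). SPCS3, a subunit of signal peptidase, was at 155 and 154 CPM in control, 191 and 191 in siRAB3IP, and 164 and 178 in siCAMSAP1, with 0.37 ± 0.08 (adjusted p = 0.00923, edgeR). SSR1, a subunit of the translocon-associated complex, was at 79.3 and 91.1 CPM in control, 89.2 and 106 in siRAB3IP, and 75.2 and 80.2 in siCAMSAP1. SSR1 overlapped control in siRAB3IP and was not called there (0.26 ± 0.09, adjusted p = 0.0914, edgeR), nor was SEC61B, the small subunit of the channel (0.09 ± 0.11).

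Sorted by the branch with which they are usually associated, 5 of 9 genes tied to ATF6 rose in siRAB3IP, with a median log2 fold change of 0.27 over the 9, and 5 of 8 tied to XBP1, with a median of 0.38. Over all genes 6.39% were called higher. Called genes of the former were HSPA5, HYOU1, CALR, HERPUD1 and SEL1L, and of the latter EDEM1, SEC24D, SPCS3, SEC61A1 and DNAJC3. HSP90B1, PDIA4, MANF and CRELD2, tied to ATF6, and DNAJB9, SEC61B and SSR1, tied to XBP1, were not called. The difference between the branches was not tested. ERSE was present in the promoter windows of 4 of 15 called genes and 3 of 16 other genes, and ERSE-II in 3 of 15 and 0 of 16.

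siCAMSAP1 against control called 1 of the 35 genes, DERL3, which was lower, and 0 were called higher. Over all genes 0.94% were called, 0.448% higher and 0.493% lower. The median log2 fold change of the 35 genes was 0.12, where that of all genes was 0.00, and 27 of 35 were above 0, against 50.2% of all genes. HSP90B1, EDEM3 and DERL2 are among the 27, with CPM ratios to control of 0.978, 0.999 and 0.994. An unadjusted p under 0.05 was found for 11 of the 35 genes, 9 higher and 2 lower, and for 12.1% of all genes. EIF2AK3 was at 0.36 ± 0.09 (adjusted p = 0.101), DERL1 at 0.26 ± 0.08 (adjusted p = 0.182) and CREB3L2 at -0.35 ± 0.12 (adjusted p = 0.237) by edgeR. Libraries of siCAMSAP1 were above both controls for 16 genes and below for 5, against 17.2% and 24.1% of all genes. DESeq2 also called 1 of the 35 and limma-voom 0. A replicate block by library order called 5 of the 35, 3 higher and 2 lower, beside 6.3% of all genes. The call of DERL3 was lost in 10 of the 15 alternatives, among them the omission of each single library. This comparison and the preceding one share the control libraries.

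**Figure D3:**
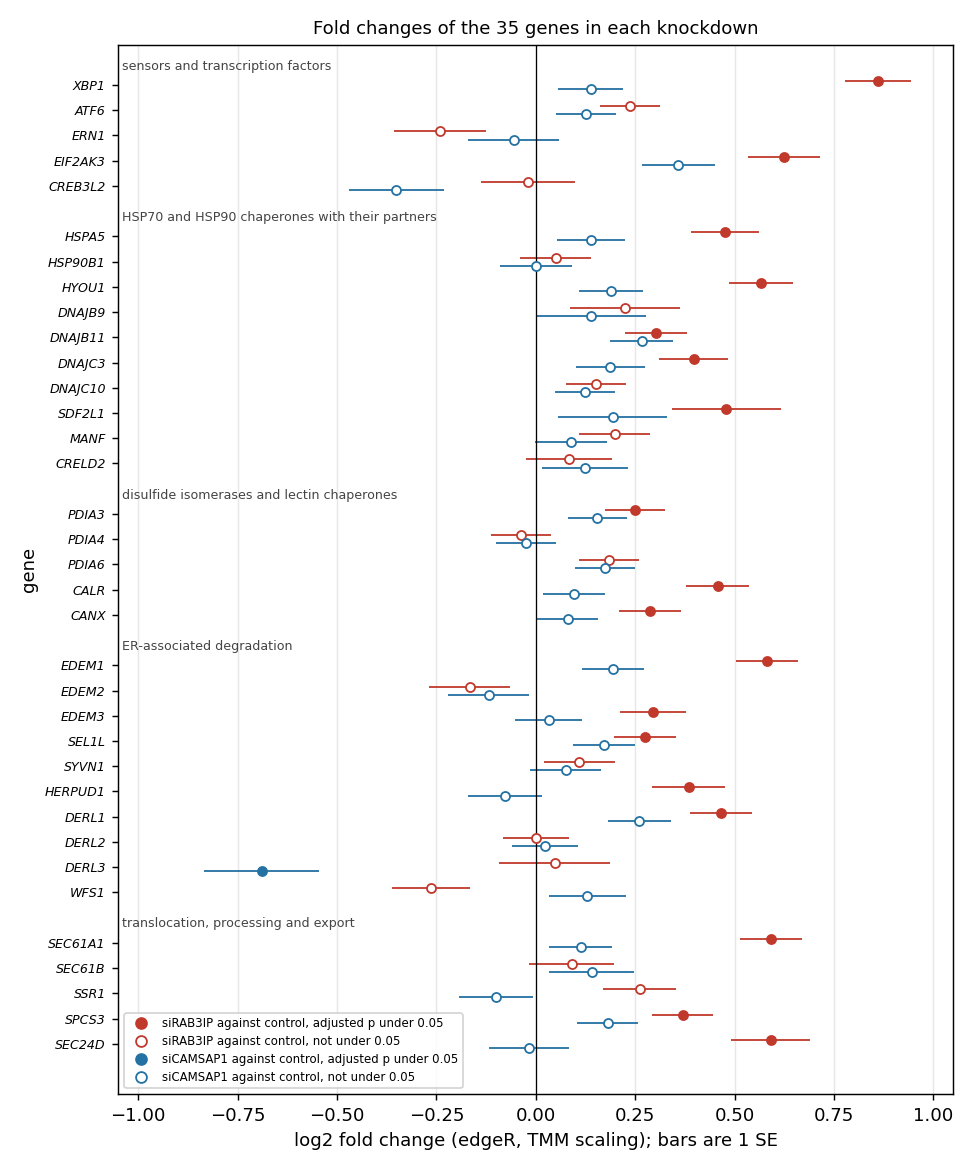
Log2 fold change against control (x axis; bars are 1 SE) of each of the 35 genes (y axis, by role) in siRAB3IP (red) and siCAMSAP1 (blue), with filled points for an adjusted p under 0.05. The 18 filled red points lie between 0.25 and 0.86, and the only filled blue point is DERL3 at -0.69.

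The knockdowns were also set against each other, a comparison that does not use the controls for its difference. In siRAB3IP against siCAMSAP1, 10 of the 35 genes were higher and 1 was lower (31.4%), where 8.85% of all genes were called, 4.89% higher and 3.96% lower. Called higher were XBP1 (0.72 ± 0.08), SEC24D (0.61 ± 0.10), DERL3 (0.74 ± 0.14), SEC61A1 (0.48 ± 0.08), HERPUD1 (0.46 ± 0.09), EDEM1 (0.39 ± 0.08), HYOU1 (0.38 ± 0.08), CALR (0.36 ± 0.08), SSR1 (0.36 ± 0.09) and HSPA5 (0.34 ± 0.09, log2 fold change with SE in each case). WFS1 was lower, at -0.39 ± 0.10 (adjusted p = 0.0254, edgeR). EIF2AK3, called against control, differed between the knockdowns by 0.27 ± 0.09 with an adjusted p of 0.0901 (edgeR), and DNAJB11 by 0.04 ± 0.08. In CPM the siRAB3IP libraries were above both siCAMSAP1 libraries for 20 genes and below for 3, against 23.3% and 29.9% of all genes. With only genes of a mean of at least 5 CPM tested, 15.45% of them were called between the knockdowns, against 31.4% of the 35. Leaving out any siRAB3IP or siCAMSAP1 library lowered the number of calls among the 35 genes, and the share of all genes called fell as well. XBP1, SEC61A1 and SEC24D were called in each of the 15 alternatives.

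A further 114 genes of the same pathway, 113 of them tested, were described as 6 lists, with log2 fold changes and their SE given as above. In siRAB3IP against control 38 were higher and 6 lower (38.9% called, against 11.6% of all genes), with a median log2 fold change of 0.19. In siCAMSAP1 against control 1 was higher and 0 lower (0.885%), near the 0.94% of all genes called there. Between the knockdowns 23 were higher and 6 lower in siRAB3IP (25.7% called, against 8.85% of all genes). With only genes of a mean of at least 5 CPM tested, the shares of all genes were larger. In the same order of comparisons they were 19.99%, 1.39% and 15.45%.

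The list of the PERK and ATF4 branch also holds the kinases EIF2AK1, EIF2AK2 and EIF2AK4. Of its 13 genes 8 were higher and 1 lower in siRAB3IP, where 6.39% and 5.24% of all genes were. The lower gene was EIF2AK4, at -0.31 ± 0.08 (adjusted p = 0.0191, edgeR). ATF4 itself, at 0.21 ± 0.09 (adjusted p = 0.148, edgeR), TRIB3, SESN2 and EIF2AK1 were not called against control. Between the knockdowns 8 of the 13 were higher and 1 lower in siRAB3IP, where 4.89% and 3.96% of all genes were. ATF4 was among the higher ones, at 0.45 ± 0.09 (adjusted p = 0.00713, edgeR), with siCAMSAP1 the lowest group. PPP1R15A (GADD34), which returns eIF2-alpha to the unphosphorylated state, was at 76.4 and 65.5 CPM in control, 163 and 139 in siRAB3IP, and 111 and 106 in siCAMSAP1. Its 3 groups did not overlap, and it was called in both knockdowns, at 1.15 ± 0.11 (adjusted p = 0.000102) and 0.64 ± 0.11 (adjusted p = 0.0168) by edgeR. ATF3, a stress-induced transcription factor, was at 44.3 and 39.8 CPM in control, 84.2 and 67.5 in siRAB3IP, and 53.5 and 55.4 in siCAMSAP1, with 0.91 ± 0.11 in siRAB3IP (adjusted p = 0.000448, edgeR). ASNS, the asparagine synthetase and an ATF4 target, was at 64.8 and 62.5 CPM in control, 88.1 and 95.4 in siRAB3IP, and 46.7 and 51.2 in siCAMSAP1. On the log2 scale ASNS rose by 0.59 ± 0.08 against control (adjusted p = 0.00103) and by 0.94 ± 0.08 against siCAMSAP1 (adjusted p = 0.000101, edgeR), with siCAMSAP1 the lowest group.

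Of 12 other genes of the sensor branches, 0 were higher and 2 lower in siRAB3IP, where 6.39% and 5.24% of all genes were, and a difference from the 35 genes was not tested. The lower genes were CREB3L4, a membrane-bound transcription factor, at -0.65 ± 0.13 (adjusted p = 0.00615), and MBTPS2, the protease that makes the second cut in ATF6, at -0.35 ± 0.09 (adjusted p = 0.0242, edgeR). CREB3L4 also differed between the knockdowns, at -0.58 ± 0.13 (adjusted p = 0.0133, edgeR).

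In siRAB3IP against control 6.39% of all genes were higher and 5.24% lower. Among 23 other folding enzymes 7 were higher and 0 lower in siRAB3IP. They were led by the disulfide isomerase TXNDC5 (0.64 ± 0.12), the oxidase ERO1A (0.46 ± 0.08) and the glucosidase MOGS (0.44 ± 0.08). UGGT1, which returns unfolded glycoproteins to the lectin chaperones, was lower in siRAB3IP than in siCAMSAP1 at -0.33 ± 0.08 (adjusted p = 0.0238, edgeR), and MOGS was higher at 0.42 ± 0.08. Of 22 other degradation genes 5 were higher and 2 lower, with SELENOK (0.52 ± 0.10) and ERLEC1 (0.44 ± 0.08) above control and HERPUD2 (-0.45 ± 0.09), the relative of HERPUD1, below it. Between the knockdowns SELENOK (0.39 ± 0.10) was higher, while HERPUD2 (-0.49 ± 0.09) and UBE2J1 (-0.37 ± 0.10), a ubiquitin-conjugating enzyme of the ER, were lower.

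Genes of entry into the ER and exit from it included several rises. Of 24 other translocation and glycosylation genes 11 were higher and 0 lower in siRAB3IP (45.8% called, against 11.6% of all genes). SRPRA, a subunit of the receptor of the signal recognition particle, was at 98.8 and 104 CPM in control, 158 and 178 in siRAB3IP, and 111 and 113 in siCAMSAP1, a rise of 0.79 ± 0.08 (adjusted p = 0.000134, edgeR). The partner subunit SRPRB rose by 0.61 ± 0.09 and SEC11A, a catalytic subunit of signal peptidase, by 0.41 ± 0.08. Against siCAMSAP1, SRPRA, SRPRB and OSTC, a subunit of the oligosaccharyltransferase, were higher by 0.61 ± 0.08, 0.46 ± 0.09 and 0.43 ± 0.08. Of 19 other export and retrieval genes 7 were higher and 1 lower in siRAB3IP (42.1% called). KDELR2, a receptor that returns chaperones to the ER, was at 0.51 ± 0.08 and the COPII GTPase SAR1B at 0.51 ± 0.08. The 1 lower gene was TMED10, a cargo receptor of early secretion, at 175 and 178 CPM in control, 113 and 108 in siRAB3IP, and 171 and 182 in siCAMSAP1, a log2 fold change of -0.61 ± 0.08 (adjusted p = 0.00053, edgeR). Against siCAMSAP1, TMED10 was at -0.65 ± 0.08, while the COPII adaptor SEC24A and SAR1B were at 0.57 ± 0.09 and 0.55 ± 0.08.

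**Figure D4:**
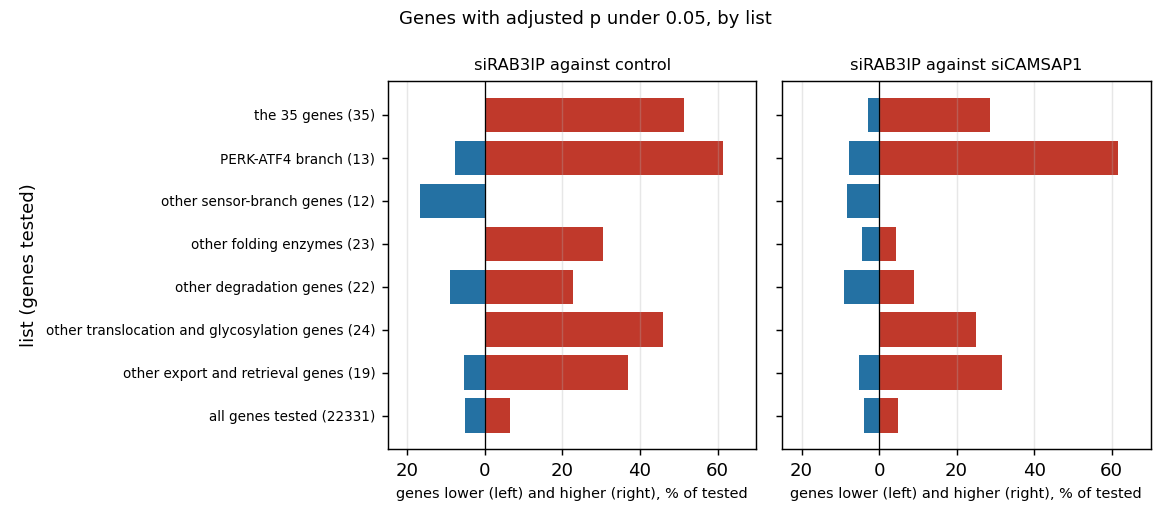
Share of tested genes called higher (red, to the right) and lower (blue, to the left), in percent (x axis), for the 35 genes, 6 lists of other pathway genes and all genes tested (y axis, number tested in parentheses), in siRAB3IP against control and siRAB3IP against siCAMSAP1. The 35 genes have 51.4% called against control, all of them higher, while 6.39% of all genes were higher and the 12 other sensor-branch genes had only lower calls.

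The authors' deposited table for siRAB3IP against control lists 20 of the 35 genes, all of them higher, which include all 18 called here with edgeR. The additional 2 are ATF6, at a log2 fold change of 0.24, and SSR1, at 0.27, in the authors' deposited table. For siCAMSAP1 the authors' deposited table lists DERL3 alone, at -0.71. The counts were made without strand, and 20 of the 35 genes share exon bases with another annotated gene, from 0.369% to 25.2% of their length. Of the called genes 10 do so, at most 18.9% (PDIA3), and PDIA3 also has a processed copy, PDIA3P1, with up to 9.65 CPM. Fragments in shared bases cannot be assigned to 1 gene with certainty, and the called genes XBP1, HSPA5, DNAJC3, SDF2L1, EDEM3, SEL1L, HERPUD1 and SEC24D share none.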

How the data were processed

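Poly(A) RNA from HEK293 cells was sequenced in 6 libraries, 3 groups of 2, after TruSeq library preparation per the labels' protocols. The deposited counts are fragments per gene on hg19, made with featureCounts 1.6.0 without strand per the file headers; STAR and DESeq2 are named in the submitters' processing notes, without versions. In the deposited signal columns, the counts of a library are divided by 1 factor. The deposited tables also give log2 fold changes with errors, a Wald score and p-value columns, all computed by the authors and listed for genes past a threshold only. The tests ran on the counts.

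Groups followed the library identifiers and table names. edgeR 4.0.16 in R 4.3.3 was used with TMM scaling, filterByExpr at its defaults and the quasi-likelihood test in 1 model of all 6 libraries, with Benjamini-Hochberg adjustment over 22331 genes at 0.05. SE is the log2 fold change over the root of the F statistic. CPM is the count scaled to the fragments of the library, and TPM used the length column. The test was checked on simulated data.

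The 35 genes and all other lists were chosen with earlier results of these data known. Named are all 35 genes, with values by library for those called in any comparison and for XBP1, ATF6, ERN1, EIF2AK3 and HSPA5, and up to 3 called genes per other list and comparison with a mean of at least 5 CPM. Values of HSP90B1 by library were added after they were seen. Of 63677 genes, 52526 were matched to a symbol. A description of protein ends was not run. As alternatives, scaling was by RLE or upper quartile, the filter was dropped or raised to a mean of 5 CPM, only the groups compared were fitted, replicate numbers were added as a block, DESeq2 1.42.0 or limma-voom (limma 3.58.1) replaced edgeR, each library was left out, and libraries were grouped by title. Python 3.11.15 was used for tables and figures.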

Additional observations from a re-analysis of the deposited data

How the results depend on the processing

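Counts of called genes moved with single libraries, with a replicate block and with the grouping. Leaving out each library in turn gave 9 to 16 of 35 genes called in siRAB3IP against control (18 with all libraries), 0 to 0 in siCAMSAP1 against control (1) and 5 to 12 between the knockdowns (11). A lone library left in a group is assumed to vary like those of the other groups. In siCAMSAP1 against control, the 1 call became 0 with a mean of at least 5 CPM, with only the groups compared, with the replicate block by title numbers and with limma-voom. A replicate block by library order gave 22, 5 and 18 of the 35 genes in the 3 comparisons, of which 5 and 18 are over 1.5 times the values without it, beside 5371, 1408 and 4630 of all genes against 2597, 210 and 1977. In siCAMSAP1 that block called EIF2AK3, DNAJB11 and DERL1 higher and CREB3L2 and DERL3 lower. Numbered libraries shared their deviations weakly (correlations of 0.148, 0.150 and 0.110), with only 2 numbers and no label that ties a number to a batch, so the numbers were not taken to pair libraries. With the replicate block by title numbers the counts were 14, 0 and 10. All other alternatives in the same grouping gave 14 to 19 genes in siRAB3IP against control, 1 in siCAMSAP1 and 11 to 12 between the knockdowns. The cause of these shifts was not tested, apart from the smaller number of libraries or genes that an alternative leaves by construction.

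Grouped by sample titles, 0 genes were called in each of the 3 comparisons by edgeR, and the log2 fold changes below turned sign. No library that is siRAB3IP by identifier is titled circRAB3IP, while the groups titled control and circCAMSAP1 each hold such a library. The turned signs follow from that regrouping and are no separate test of the effect. Against control they were XBP1 -0.51, EIF2AK3 -0.25, HSPA5 -0.20, HYOU1 -0.18, DNAJB11 -0.088, DNAJC3 -0.16, SDF2L1 -0.37, PDIA3 -0.069, CALR -0.23, CANX -0.11, EDEM1 -0.16, EDEM3 -0.055, SEL1L -0.047, HERPUD1 -0.30, DERL1 -0.14, SEC61A1 -0.27, SPCS3 -0.17 and SEC24D -0.19. Between the knockdowns they were XBP1 -0.52, HSPA5 -0.14, HYOU1 -0.36, CALR -0.31, EDEM1 -0.27, HERPUD1 -0.17, DERL3 -0.019, WFS1 0.085, SEC61A1 -0.31, SSR1 -0.20 and SEC24D -0.33. In the 250 bases before the start alone, ERSE and ERSE-II were found in the same number of the 31 genes, 7 and 3.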
